A study of Mus musculus with 40 samples.

Results

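Acetylcholine acts in the forebrain through muscarinic receptors, which couple to G proteins, and nicotinic receptors, which are ion channels built from several subunits, and its action is ended by the enzyme acetylcholinesterase. Fibres from the basal forebrain supply both the hippocampus and the cortex, where muscarinic signalling raises the excitability of pyramidal neurons and is used experimentally to provoke seizures. The genes described here were the 4 muscarinic receptor genes Chrm1, Chrm2, Chrm3 and Chrm4, the 3 nicotinic subunit genes Chrna4, Chrna7 and Chrnb2, the acetylcholinesterase gene Ache, and Lynx1, which encodes a membrane-anchored protein that binds nicotinic receptors and damps their response. They were chosen by symbol, and all 9 were found among the 47643 gene rows of the hippocampus and frontal cortex count tables.

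The libraries came from wild-type germ-free Swiss Webster mice, females of 6 to 8 weeks, that were colonized with stool from human donors taken before (pre-KD) or after (post-KD) a ketogenic diet. The mice themselves ate standard chow, and their brains were taken on day 4 after colonization. For each of 10 donors there was a pre-KD and a post-KD cohort, and each cohort gave 1 hippocampus and 1 frontal cortex library, each a pool of 6 mice, so that there were 10 libraries in each of 4 groups and 40 in all. The study asked how the brain differs between recipients of the pre-KD and post-KD microbiota, in a setting where seizure resistance was the trait of interest. As the donor was the unit repeated, p-values between post-KD and pre-KD measure the spread between pools of recipients of different donors. In the fits of both regions, which held a term for each cohort, they measure the spread of the regional difference between cohorts. Variation between mice of a pool was not seen.

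Depth was low and even, from 1140756 to 1947416 counts per hippocampal library and from 1188447 to 2095352 per frontal cortex library. A single count was therefore worth a median of 0.640 CPM (counts scaled to a common library size by TMM factors over all 40 libraries) in the hippocampus and 0.573 CPM in the frontal cortex. The 8 hippocampal markers summed to between 848 and 1355 CPM in the hippocampal libraries and to between 457 and 826 CPM in the frontal cortex libraries, and the 8 cortical markers to between 324 and 752 CPM and between 508 and 799 CPM. The frontal cortex libraries also held striatal transcripts. The 7 striatal markers summed to between 500.2 and 1103 CPM there and to between 33.0 and 295 CPM in the hippocampus, and their part in the regional differences described below was not tested.

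All 9 genes are protein-coding, and their positions on GRCm38 (GENCODE M21) spread over 8 chromosomes. Chrm1 lies at chr19:8663789-8683587, Chrm2 at chr6:36388084-36528414, Chrm3 at chr13:9875486-10360847, Chrm4 at chr2:91927249-91928688, Chrna4 at chr2:181018380-181043546, Chrna7 at chr7:63098692-63212569, Chrnb2 at chr3:89746195-89764632, Ache at chr5:137287519-137294466 and Lynx1 at chr15:74747852-74753046. Exons of 4 of them overlap exons of a gene on the other strand. The longest such overlap was 1365 bases, between Chrnb2 and Adar, and the others were 329 bases between Chrm1 and Gm22820, 142 bases between Chrm2 and 9330158H04Rik and 98 bases between Ache and Gm42456. Whether counting used strand was not stated, so reads from these stretches cannot be told apart.

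The start sites of the 2 genes with the lowest counts are shown for orientation, as the 250 bases before the RefSeq start (GRCm38.p6, each in its gene's own 5′ to 3′ direction). Capitals mark GC boxes (GGGCGG on either strand, overlapping matches included) and the E-box CACGTG, a motif bound by USF and related factors. The windows are chr2:91921939-91922188 on the plus strand for Chrm4 and chr7:63212527-63212776 on the minus strand for Chrna7.
Chrm4: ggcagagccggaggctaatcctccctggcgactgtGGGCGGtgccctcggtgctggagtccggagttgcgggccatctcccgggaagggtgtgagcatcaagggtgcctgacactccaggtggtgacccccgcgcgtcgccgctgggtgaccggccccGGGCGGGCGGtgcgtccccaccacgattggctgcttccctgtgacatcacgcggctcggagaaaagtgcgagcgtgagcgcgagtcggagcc
Chrna7: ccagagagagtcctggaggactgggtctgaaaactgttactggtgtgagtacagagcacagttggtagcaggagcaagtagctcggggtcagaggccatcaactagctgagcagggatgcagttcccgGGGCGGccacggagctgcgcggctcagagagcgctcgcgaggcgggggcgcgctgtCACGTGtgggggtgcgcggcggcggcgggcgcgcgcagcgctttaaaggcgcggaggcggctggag

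Of the 7 members matched in the RefSeq promoter table, all but Chrm1 and Lynx1, a GC box was found in 5 and the E-box in 2, Chrna7 and Ache. For Chrm2, Chrm3, Chrna4 and Ache the window reaches into the RefSeq gene, by 93, 250, 250 and 7 bases. Among all 32851 promoter windows of this length the shares were 32.7% for the GC box and 6.02% for the E-box. The G and C content was 70.0% for Chrm4 and 67.2% for Chrna7, beside a median of 52.4% over all windows. The cAMP response element TGACGTCA was in none of the 7 windows and in 1.55% of all windows. These matches describe the letters only.

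Levels per length, in CPM per kb of exon, put Lynx1 and the muscarinic receptors Chrm1 and Chrm3 highest in both regions. The lengths are those of the GENCODE M21 models, of which the Chrna4 and Chrnb2 models run past the RefSeq 3′ end. The resources table of the study also names a 3′-tag kit, which would change levels per length. The part of either in the order was not tested. In the hippocampus the means (n = 20 libraries) ran from Lynx1 at 26.7 ± 7.71 (SD) through Chrm1 at 20.4 ± 3.11, Chrm3 at 14.3 ± 5.52 and Ache at 10.6 ± 5.03 to Chrna4 at 3.73 ± 2.55, Chrm2 at 2.16 ± 1.82 and Chrnb2 at 2.08 ± 1.52. The mean ± SD range of each overlapped with that of its neighbour in the order. In the frontal cortex Lynx1, at 35.3 ± 7.36 CPM per kb, stood apart from Chrm1 at 21 ± 4.73, and Chrnb2, at 1.81 ± 1.07, stood apart from the genes below it. Chrm3 (15.6 ± 4.66), Ache (8.89 ± 3.77), Chrna4 (5.33 ± 2.35) and Chrm2 (4.2 ± 2.69) kept the places they held in the hippocampus, and the mean ± SD ranges of neighbours from Chrm1 to Chrnb2 overlapped. Chrna7 and Chrm4 came last in both regions. Without division by length Chrm1 passed Lynx1 and Chrnb2 passed Chrm2 in the hippocampus, and the order in the frontal cortex stayed as it was. There, however, Lynx1 (165 ± 34.3 CPM) then overlapped with Chrm1 (136 ± 30.7 CPM), and Chrm3 stood apart from Ache.

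**Figure D1:**
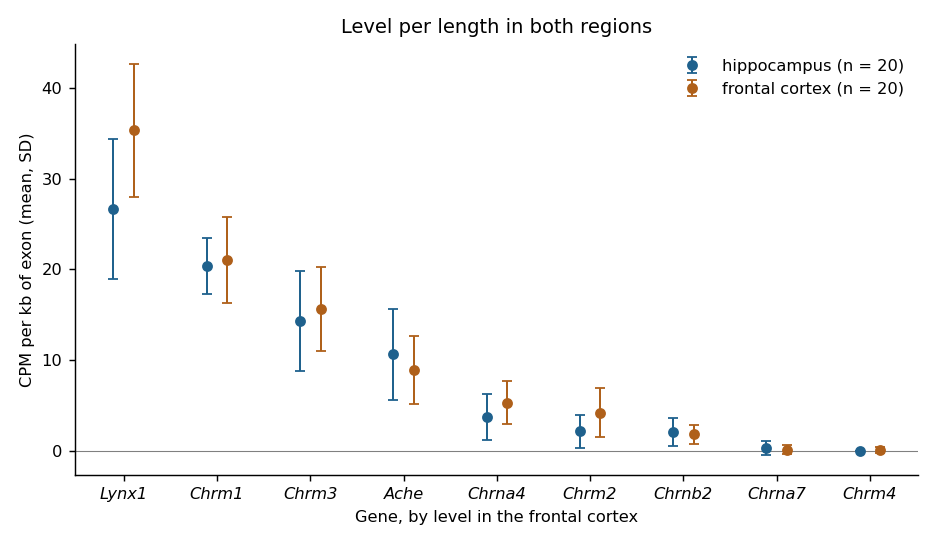
Mean level of each gene in CPM per kb of exon, with the SD over 20 libraries as bars, for the hippocampus (blue) and the frontal cortex (brown). Lynx1, Chrm1, Chrm3 and Ache lie above the nicotinic subunits and Chrm2 in both regions, and Chrna7 and Chrm4 lie near 0.

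The spread between libraries of a group was well above what counting alone gives. For Chrm1, which couples to Gq and is the main muscarinic receptor of forebrain pyramidal neurons, the coefficient of variation ran from 11.4% in the hippocampal pre-KD group to 23.0% in the frontal cortex post-KD group, where counting error alone would give 6.95% and 6.40%. For Chrm2, a Gi-coupled receptor found on cholinergic terminals and interneurons, it ran from 48.9% to 114%, against 14.2% and 24.4% from counting. Chrm2 was at 0 in 4 of 20 hippocampal libraries although the mean over them was 20.3 counts.

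**Figure D2:**
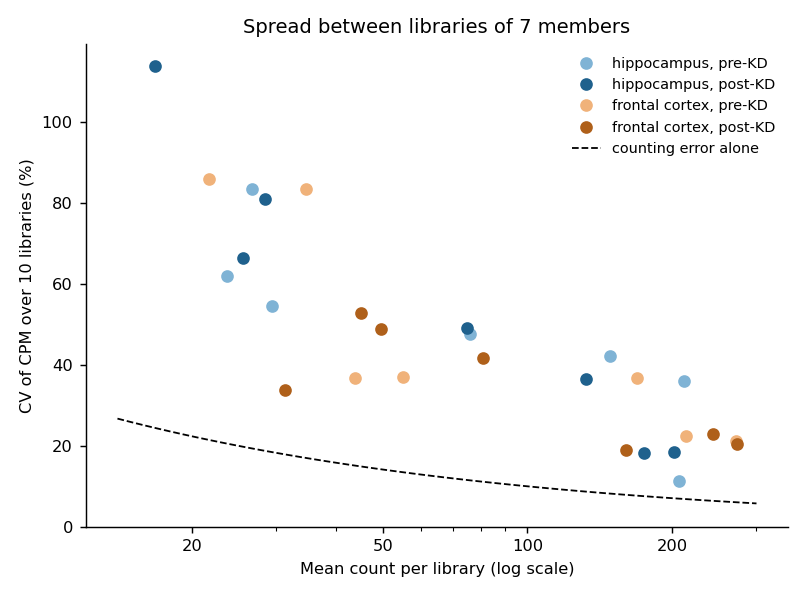
Coefficient of variation of CPM over the 10 libraries of a group, in percent, against the mean count per library on a log scale, for the 7 genes other than Chrm4 and Chrna7 in each of the 4 groups. The dashed line is counting error alone, and every point lies above it.

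No member passed the adjusted threshold between post-KD and pre-KD recipients in either region. In the hippocampus 0 of the 8 members tested had an adjusted p under 0.05 (edgeR's quasi-likelihood test, Benjamini-Hochberg over all genes), where 0.0057% of the 17529 genes tested did, and in the frontal cortex 0 of 8, where 0.0056% of 17873 did. At an unadjusted p under 0.05 there was 1 member in each region, Chrna7 both times, against 10.1% and 9.68% of all genes. Chrm4 had too few counts to be tested in either region. The median log2 change of the 7 tested members other than Chrna7, which entered both tests through its post-KD counts alone, was 0.06 for the hippocampus and 0.11 for the frontal cortex, beside -0.01 and 0.01 over all genes. Of the 4 blood markers tested, 2 were higher post-KD in the frontal cortex at an unadjusted p under 0.05 and 2 were lower for the difference between the changes of the regions, beside the 9.68% above and 2.22% of all genes. Their summed level ranged from 390.4 to 1156 CPM in frontal cortex pre-KD and from 548 to 1390.0 CPM in post-KD libraries, with Hba-a2 at 0 in both, and their part in the members' values was not tested.

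**Figure D3:**
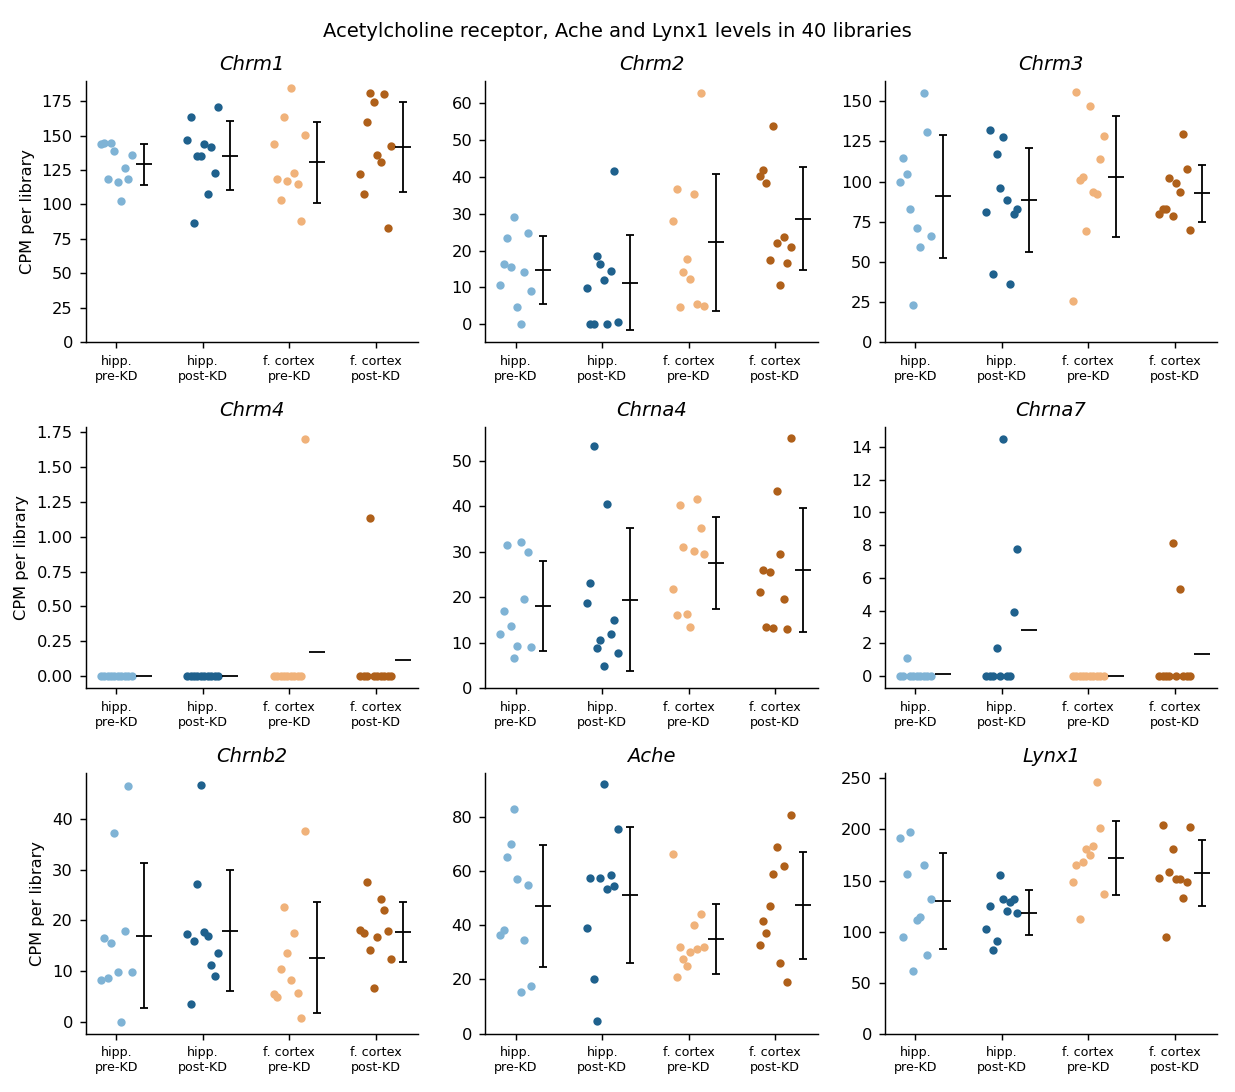
CPM of each gene in each of the 40 libraries, in 4 groups of 10 ordered by donor, with the mean as a bar and the SD as whiskers (mean only for Chrm4 and Chrna7). The pre-KD and post-KD points overlap for every gene, and Chrna7 and Chrm4 are at 0 in most libraries.

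Of the muscarinic receptors, Chrm1 ranged in the hippocampus from 102 to 145 CPM (median 131) in pre-KD and from 86.7 to 171 CPM (median 138) in post-KD libraries. The fitted log2 change was 0.06 (SE 0.19, adjusted p = 1 by edgeR) and Chrm1 was higher in the post-KD library of 7 of 10 donors. It ranged in the frontal cortex from 88.0 to 184 CPM (median 121) and from 83.2 to 181 CPM (median 139), with a log2 change of 0.11 (SE 0.15, adjusted p = 0.982 by edgeR) and 5 of 10 donors higher. The groups overlapped almost completely in both regions, and the 95% intervals, -0.32 to 0.44 and -0.19 to 0.42, were the narrowest of the members in the hippocampus and among the narrowest in the frontal cortex.

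Chrm3, another Gq-coupled receptor, ranged from 23.3 to 155 CPM (median 91.4) in hippocampal pre-KD and from 36.1 to 132 CPM (median 85.8) in post-KD libraries. The ranges in the frontal cortex were 25.8 to 156 CPM (median 102) and 69.7 to 130 CPM (median 88.4). The log2 changes were -0.04 (SE 0.25) and -0.16 (SE 0.19), with adjusted p = 1 and 0.98 (edgeR). The lowest library lay under 40 CPM in 3 of the 4 groups, and pre-KD and post-KD libraries overlapped in both regions.

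Chrm2 varied widely between libraries. In the hippocampus it ranged from 0 to 29.1 CPM (median 14.9) in pre-KD and from 0 to 41.5 CPM (median 10.9) in post-KD libraries, and in the frontal cortex from 4.70 to 62.6 CPM (median 16) and from 10.6 to 53.8 CPM (median 22.9). The log2 change was -0.39 (SE 0.78, 95% interval -1.94 to 1.17, adjusted p = 1 by edgeR) in the hippocampus, with 4 donors higher and 5 lower, and 0.36 (SE 0.38, 95% interval -0.40 to 1.12, adjusted p = 0.964) in the frontal cortex, with 8 higher and 2 lower. With the donor as a replicate block the values were -1.05 and 0.68, and with limma-voom weights -1.70 (unadjusted p = 0.0587) and 0.82 (unadjusted p = 0.0575). The hippocampal post-KD group held 3 libraries at 0, from donors 2, 3 and 7, and the highest hippocampal value, from donor 9.

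The test of the difference itself, the hippocampal change less the frontal cortex change with the cohort as a term, gave a log2 value of -1.86 for Chrm2 (SE 0.94, 95% interval -3.71 to -0.01, unadjusted p = 0.0487, adjusted p = 1 by edgeR over all genes). The hippocampal change was the lower in 8 of 10 donors. At an adjusted p under 0.05 there were 0 of 8 members (edgeR), against 0.0154% of all genes, and at an unadjusted p under 0.05 there was 1 of 8, against 2.22% of all genes. Leaving out donors 2, 3, 5, 8 or 10 in turn raised the unadjusted p to between 0.0543 and 0.223. Leaving out donors 1, 4, 6, 7 or 9 in turn gave an unadjusted p between 0.0184 and 0.0463. It was 0.0255 with DESeq2 (log2 value -1.98) and 0.0468 with every gene that had a count. It was 0.0908 with filterByExpr and 0.0509 with RLE size factors, and without the cohort term the value was -0.74 with p = 0.364. Striatal markers moved with it, as 6 of 6 tested lay below 0 in this comparison (median -0.78, 4 of 6 with an unadjusted p under 0.05) and 6 of 6 in the hippocampal post-KD comparison (median -0.58, 1 of 6). In the frontal cortex post-KD comparison 4 of 6 lay above 0 (median 0.08), and 2 of 6 were higher at an unadjusted p under 0.05. The summed level of the striatal markers ranged from 79.2 to 295 CPM in hippocampal pre-KD and from 33.0 to 209 CPM in hippocampal post-KD libraries, with Drd2 at 0 in both, and their part in the Chrm2 value was not tested. The other 7 members lay between -0.57 and 1.37, each with an adjusted p of 1.

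Chrm4, a Gi-coupled receptor best known from striatal projection neurons, was at 0 counts in all 20 hippocampal libraries, which allows up to 0.0972 CPM (3 counts over the 20 libraries, counting error only). It had 3 frontal cortex counts in the pre-KD library of donor 10, 2 in the post-KD library of donor 4 and 0 in the other 18. Of the striatal markers, Drd2 was likewise near 0, with 5 counts over the 20 frontal cortex libraries, whereas Penk averaged 210.1 CPM and Ppp1r1b 329 CPM there. The Chrm4 gene model in GENCODE M21 is 1440 bases long and starts 5060 bases downstream of the RefSeq start shown above, and the RefSeq gene runs 1147 bases further at its 3′ end. The annotation release used for counting is not given in the sources used here, and the part of the gene model in the low counts was not tested.

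Among the nicotinic subunits, Chrna4 and Chrnb2, which assemble into the main high-affinity nicotine receptor of the brain, were present at low levels. Chrna4 ranged from 6.55 to 32 CPM (median 15.4) in hippocampal pre-KD and from 4.83 to 53.4 CPM (median 13.4) in post-KD libraries. Its frontal cortex values ranged from 13.4 to 41.5 CPM (median 29.8) and from 13.1 to 54.9 CPM (median 23.3). The groups overlapped, with log2 changes of 0.09 (SE 0.59, 5 of 10 donors higher, adjusted p = 1 by edgeR) and -0.08 (SE 0.34, 3 of 10 donors higher, adjusted p = 0.998). The hippocampal interval, -1.07 to 1.25, reaches past 1 on the log2 scale in either direction.

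Chrnb2 ranged from 0 to 46.5 CPM (median 12.7) in hippocampal pre-KD and from 3.55 to 46.7 CPM (median 16.4) in post-KD libraries. Its frontal cortex values ranged from 0.666 to 37.5 CPM (median 9.35) and from 6.63 to 27.5 CPM (median 17.6). Here too the groups overlapped. The log2 changes were 0.07 (SE 0.63, adjusted p = 1 by edgeR) in the hippocampus and 0.47 (SE 0.48, adjusted p = 0.960) in the frontal cortex, with 7 of 10 donors higher in each. The donor block moved these to 0.31 and 0.85 (unadjusted p = 0.688 and 0.150). Among the 7 members other than Chrm4 and Chrna7, correlations of log2 CPM, with region means removed, ran from -0.40 (Chrm2 with Chrna4) to 0.33 (Chrm1 with Ache) over the 40 libraries, which share depth differences and, in pairs, mouse cohorts.

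Chrna7, whose product forms the fast calcium-permeable nicotinic receptor that binds alpha-bungarotoxin, was seen almost only in post-KD libraries, and in few of them. In the hippocampus 1 pre-KD library had 2 counts (donor 3), and 4 post-KD libraries had counts, 3 for donor 4, 18 for donor 6, 6 for donor 9 and 12 for donor 10. In the frontal cortex the pre-KD libraries were all at 0, and 2 post-KD libraries had counts, 11 for donor 5 and 9 for donor 7. No cohort had counts in both of its regions, and the median was 0 in all 4 groups.

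Summed over each group, hippocampal Chrna7 counts were 39 after post-KD and 2 after pre-KD transfer, a ratio of 21.2 per effective library size with an exact 95% interval from counting alone of 5.49 to 181. Without donor 6 the ratio was 11.1, and without donor 3, which held the 2 pre-KD counts, it was at least 13.6-fold higher. In the frontal cortex there were 20 counts, all from 2 libraries, against 0. Taking 3 counts over the 10 libraries as the limit for the pre-KD group, the ratio of the sums was at least 6.21. Without donor 5 it was at least 2.67 and without donor 7 at least 3.41. These bounds reflect counting error in the pre-KD group only, and leave out the spread between libraries and that of the post-KD counts. The fits across all genes, which take in the spread between libraries, gave p = 0.0141 and 0.00265 and adjusted p = 0.206 and 0.122 (edgeR). Chrna7 entered both tests through its post-KD counts alone, since the 2 pre-KD counts fall short of the minimum of 10, so that a difference was built into its being tested. With the donor as a replicate block the unadjusted p was 0.148 for the hippocampus and 0.154 for the frontal cortex, and without donor 6 that in the hippocampus was 0.0607. Another sparse gene of the family, the muscle subunit gene Chrnb1, had 38 counts in 1 hippocampal post-KD library and 0 in the other 9. Chrm5, the remaining muscarinic receptor gene, had 47 counts in 1 hippocampal post-KD library and 71 over 7 of the pre-KD libraries.

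Ache, whose product hydrolyses acetylcholine in the synaptic cleft, had the smallest p of the members with counts in most libraries between post-KD and pre-KD recipients, though the change was within the spread. Its frontal cortex values ranged from 21.1 to 66.4 CPM (median 31.5) in pre-KD and from 19 to 80.4 CPM (median 44.2) in post-KD libraries. The log2 change was 0.44 (SE 0.27, 95% interval -0.10 to 0.97, p = 0.107, adjusted p = 0.725 by edgeR), with 7 of 10 donors higher. Of the frontal cortex pre-KD libraries, that of donor 1 was far above the other 9, and without donor 1 the unadjusted p was 0.0227 and the log2 change 0.64, with an adjusted p of 0.351. With the other donors left out in turn, the log2 change ran down to 0.31 (p = 0.292, without donor 10), and only without donor 9 was p also under 0.05 (0.57, p = 0.0381). In the hippocampus Ache ranged from 15.4 to 82.9 CPM (median 46.4) and from 4.64 to 91.8 CPM (median 55.9), with a log2 change of 0.11 (SE 0.34, adjusted p = 1 by edgeR). The pre-KD and post-KD groups overlapped in both regions.

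Lynx1 was among the better measured members, with 175 to 273 counts per library in the group means. In the hippocampus it ranged from 61.1 to 198 CPM (median 123) in pre-KD and from 81.7 to 155 CPM (median 123) in post-KD libraries, and in the frontal cortex from 113 to 246 CPM (median 172) and from 94.9 to 204 CPM (median 152). The log2 changes were -0.14 (SE 0.21, adjusted p = 1 by edgeR) and -0.13 (SE 0.14, adjusted p = 0.968), with 5 of 10 and 3 of 10 donors higher. The hippocampal medians were nearly the same in both conditions, and the groups overlapped in both regions.

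**Figure D4:**
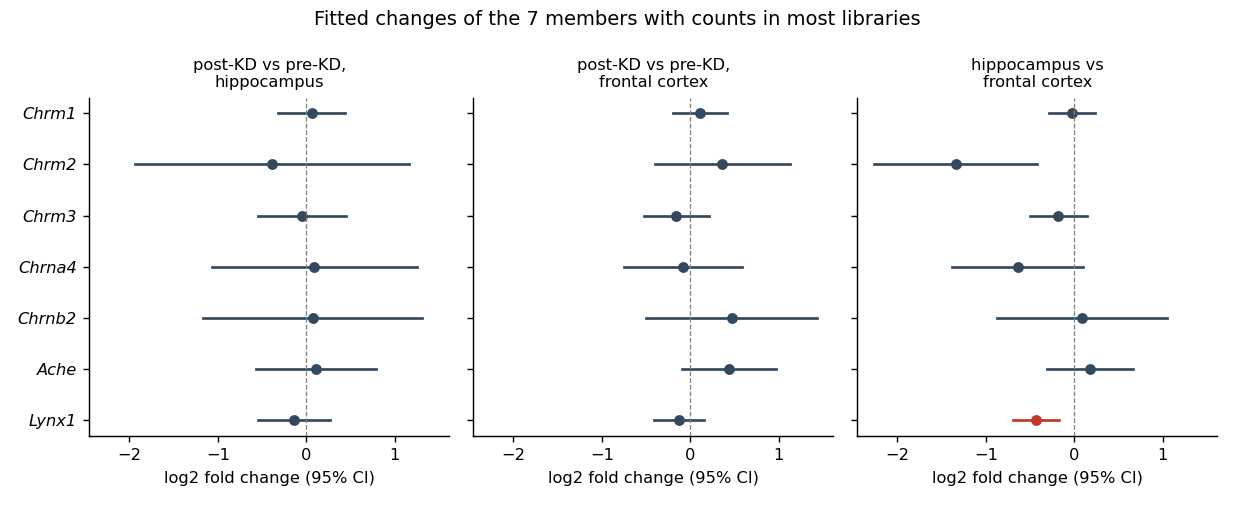
Fitted log2 fold change with its 95% interval for the 7 genes other than Chrm4 and Chrna7, in 3 comparisons, with red for an adjusted p under 0.05. The intervals of all 7 genes cross 0 in both post-KD comparisons, and in the regional comparison those of Lynx1 and Chrm2 lie below 0.

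Between the regions, Lynx1 was the only member called. It was lower in the hippocampus, where it ranged from 61.1 to 198 CPM (median 123), than in the frontal cortex, where it ranged from 94.9 to 246 CPM (median 162). The log2 difference was -0.43 (SE 0.13, 95% interval -0.69 to -0.17, adjusted p = 0.0380 by edgeR with the cohort as a term), a level 1.35-fold higher in the frontal cortex. It was lower in the hippocampus in 17 of 20 cohorts, 7 of 10 pre-KD and 10 of 10 post-KD. The regions overlapped in range, and the 3 cohorts that went the other way were all pre-KD.

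That made 1 of 8 members at an adjusted p under 0.05, against 2.82% of the 19422 genes tested. The median log2 difference over all these genes was itself -0.17, so that Lynx1 lay -0.26 from it. The call was a narrow one. It was lost when donors 2, 4, 5, 6, 7, 8, 9 or 10 were left out in turn, with an adjusted p between 0.0510 and 0.135, while the log2 difference stayed between -0.45 and -0.38. With RLE size factors the adjusted p was 0.0722, and with every gene that had a count in the test it was 0.0509. Of 6 pan-neuronal markers, 5 lay lower in the hippocampus, 3 of them past the same test, and 1 lay higher. Their summed level there ranged from 3467 to 4624 CPM, against 3876 to 4993 CPM in the frontal cortex. In bulk tissue fewer cells of a type and less RNA per cell cannot be told apart.

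Chrm2 had the larger difference but did not pass. It ranged from 0 to 41.5 CPM (median 13.1) in the hippocampus and from 4.70 to 62.6 CPM (median 21.5) in the frontal cortex, a log2 difference of -1.34 (SE 0.47, 95% interval -2.27 to -0.42, p = 0.00450, adjusted p = 0.119 by edgeR). It was lower in the hippocampus in 5 of 10 pre-KD and in 8 of 10 post-KD cohorts. DESeq2 with the same terms gave -1.38 and an adjusted p of 0.0296.

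**Figure D5:**
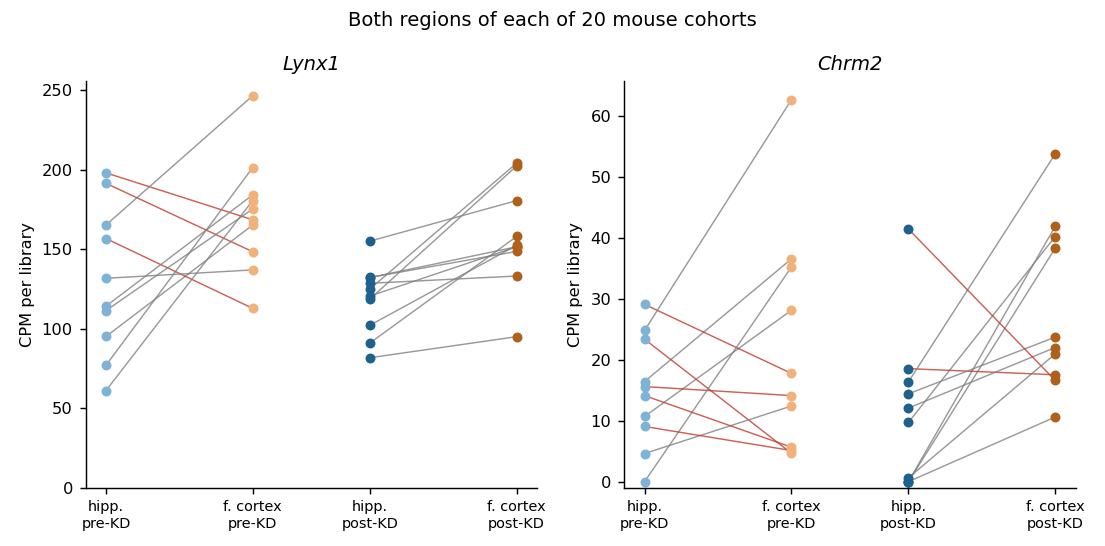
CPM of Lynx1 (left) and Chrm2 (right) in the hippocampus and frontal cortex libraries of each cohort, joined by a line, for pre-KD and post-KD recipients. Red lines mark cohorts with the higher value in the hippocampus, 3 of 20 for Lynx1 and 7 of 20 for Chrm2.

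The remaining members gave no call between the regions. Chrna4 lay at -0.64 (SE 0.38, p = 0.0906, adjusted p = 0.636 by edgeR) and was lower in the hippocampus in 15 of 20 cohorts. Chrm1 lay at -0.02 (SE 0.13, and at 0.01 with RLE size factors or DESeq2), Chrm3 at -0.18 (SE 0.16), Chrnb2 at 0.09 (SE 0.49) and Ache at 0.18 (SE 0.25). The 95% interval of Chrm1, -0.29 to 0.24, was the narrowest of these, and that of Chrnb2, -0.88 to 1.05, reached past 1 on the log2 scale. Chrna7, with 41 counts over the hippocampal and 20 over the frontal cortex libraries, had an adjusted p of 0.841.

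Of 28 other cholinergic genes, 22 were tested, and 1 was higher and 2 lower in the hippocampus at an adjusted p under 0.05, where 2.82% of all genes were called. Slc5a7, the choline transporter that supplies acetylcholine synthesis, had 34 counts over the 20 hippocampal libraries, 16 of which were at 0, and 341 counts over the frontal cortex libraries, of which 2 were at 0 (adjusted p = 0.000302 by edgeR). Chat, which synthesizes acetylcholine, had 8 and 165 counts (adjusted p = 0.0336), and it reached the minimum of 10 counts through the frontal cortex alone, so that a difference was built into its being tested. Slc18a3, which loads acetylcholine into vesicles, had 20 and 115 counts and was not called (adjusted p = 0.246). Of the 6 cholinergic neuron markers, which these genes share, Lhx8 and Gbx1 were at 0 in the hippocampus, and the summed level ranged from 0 to 16 CPM there and from 0.666 to 78.7 CPM in the frontal cortex. The frontal cortex libraries also held striatal transcripts, as given above, and their part in these differences was not tested.

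Lypd1, an anchored protein of the same family as Lynx1 that also binds nicotinic receptors, went the other way from Lynx1. It ranged from 63.8 to 233 CPM (median 161) in the hippocampus and from 31.2 to 159 CPM (median 107) in the frontal cortex. The log2 difference was 0.69 (SE 0.14, adjusted p = 0.000143 by edgeR), with the higher value in the hippocampus in 16 of 20 cohorts. The median over the 22 tested genes of the list was -0.16, beside -0.17 over all genes.

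Of the 22 genes chosen as effectors of muscarinic receptors, all were tested, and 2 were higher and 7 lower in the hippocampus, or 9 of 22 called, beside 2.82% of all genes. Among those with the smallest p were Rgs4, which limits Gq and Gi signalling (log2 difference -1.05, SE 0.09, lower in 20 of 20 cohorts), the phospholipase C gene Plcb4 (-1.36, SE 0.19, 20 of 20), the IP3 receptor gene Itpr1 (-0.70, SE 0.09, 19 of 20), the adenylyl cyclase gene Adcy5 (-1.30, SE 0.20, 17 of 20), and the protein kinase C gene Prkcb (-0.37, SE 0.06, 18 of 20). Rgs4 did not overlap between the regions, at 60.4 to 331 CPM in the hippocampus and 362 to 675 CPM in the frontal cortex. The median over the list was -0.12. Adcy5 and Rgs4 are also strongly expressed in the striatum, all 6 tested striatal markers were higher in the frontal cortex libraries at an adjusted p under 0.05, and their part in these differences was not tested.

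Between post-KD and pre-KD recipients neither list held a gene past the adjusted threshold. In the hippocampus 17 of 28 other cholinergic genes were tested and 2 had an unadjusted p under 0.05, beside 10.1% of all genes, Chrnb1 with its 38 counts in 1 library and Slc18a3, the vesicular acetylcholine transporter, with 20 counts in 2 post-KD libraries and 0 in pre-KD libraries. Both reached the minimum of 10 counts through the post-KD group alone, so that a difference was built into their being tested. In the frontal cortex 18 were tested and 4 had an unadjusted p under 0.05, beside 9.68% of all genes. Ric3, a chaperone for nicotinic receptor assembly, ranged from 37.5 to 72.0 CPM (median 64.5) in pre-KD and from 30.2 to 65.8 CPM (median 44.2) in post-KD libraries, a log2 change of -0.44 (SE 0.22, adjusted p = 0.497 by edgeR) with 9 of 10 donors lower.

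Ly6e, another Ly6-family gene, ranged from 109 to 190 CPM (median 129) and from 54.1 to 155 CPM (median 106) in the same groups, a log2 change of -0.36 (SE 0.17, adjusted p = 0.421 by edgeR) with 9 of 10 donors lower. Chrna1, a muscle subunit gene, had 13 post-KD counts in 2 libraries and 0 pre-KD counts, and Chrna6 had 10 pre-KD counts in 2 libraries and 0 post-KD counts, and each was likewise tested only because of the group that held its counts. Of the muscarinic effectors, Prkcb had an unadjusted p of 0.0375, with a log2 change of 0.18 (SE 0.09, adjusted p = 0.445), and ranged from 795 to 1211 CPM in pre-KD and from 1007 to 1244 CPM in post-KD libraries. In the hippocampus 0 of the 22 effectors had an unadjusted p under 0.05 by edgeR.

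The genes whose log2 CPM followed a member most closely over the 40 libraries, among 7670 genes averaging at least 20 counts in each region, are given as a description. For Lynx1 they were Rbfox3, the neuronal nuclear marker NeuN, with a Pearson r of 0.76, Map1a with 0.75 and Cacnb1 with 0.74. For Chrm3 they were Las1l (0.79), 4931406P16Rik (0.69) and the potassium channel gene Kcnd2 (0.66), and for Chrm2 Stxbp4 (0.70), Bckdk (0.63) and Ap1s1 (0.63). For Ache the values were 0.64 (Tspyl2), 0.63 (Wdr73) and 0.62 (Ctbp2), for Chrnb2 0.63 (Pim3), 0.59 (Brinp3) and 0.59 (Slc25a1), for Chrm1 0.59 (4931428F04Rik), 0.54 (Anapc2) and 0.52 (Txnl1), and for Chrna4 0.59 (Angel2), 0.58 (Stard10) and 0.56 (Negr1). No gene of the cholinergic or effector lists was among these. Chrm4 and Chrna7 were left out here because their values rest on few libraries.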

How the data were processed

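Total RNA of pooled hippocampus and frontal cortex was sequenced as paired 69-base reads, and the authors deposited raw counts per gene, made with STAR (version 2.5.2a) on mm10 and HTSeq (0.6.0) per the labels. The labels and methods name a TruSeq kit while the resources table of the study names a 3′-tag kit, and a 3′-tag library would change levels per length. The annotation release and strand setting used in counting are not given in the sources used here. The 47643 gene ids were matched to GENCODE M21 (GRCm38) for symbols and exonic lengths, and 47224 were found. No value column was left without a sample.

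Post-KD was compared with pre-KD in each region with the quasi-likelihood test of edgeR 4.0.16 (R 4.3.3), with TMM factors and genes of at least 10 counts over the fitted libraries, p-values being adjusted by Benjamini-Hochberg over all genes. Regions were compared in a fit of all 40 libraries with the cohort as a term, which also tested whether the post-KD change differed between them. CPM values used TMM factors over 40 libraries, and log2 CPM a prior count of 2. Ratios of sparse counts have exact (Clopper-Pearson) intervals. Alternatives were DESeq2 1.42.0, RLE size factors, filterByExpr, every gene with a count, limma 3.58.1 (voom with sample quality weights), fits with or without the block, and leaving out each donor, which for the Chrna7 ratios was chosen after seeing the data. The tests were run on simulated data beforehand.

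Replicate numbers are donors, so a number pairs pre-KD with post-KD libraries by design. Over 8157 genes averaging at least 20 counts, deviations from the group means correlated by -0.03 to 0.03 within hippocampal pairs, by -0.05 to 0.03 within frontal cortex pairs, and by -0.02 to 0.20 between the regions of a cohort. No 2 libraries of a group were identical (180 pairs). All members are named, and of the other cholinergic genes and muscarinic effectors at most the 6 with the smallest p past the adjusted threshold, or otherwise at most 4 with an unadjusted p under 0.05, per comparison. Some genes that this rule or the marker lists would name are not reported here. The 3 genes most like each member are named. Chrm5 was named after its counts were seen, and so were Drd2, Penk, Ppp1r1b and, between regions, Slc18a3. The members and all lists were chosen with earlier results of these data known. Other marker lists (thalamus and habenula, oligodendrocyte, choroid plexus, blood) were also counted, and their part in the results was not tested. Choroid plexus markers summed to between 469 and 4307 CPM in the hippocampus and to between 1.57 and 594 CPM in the frontal cortex.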

Additional observations from a re-analysis of the deposited data

Results flagged for a closer look

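In some of the 33 groups checked, the highest library stood far from the other 9. The measure was the gap to the next value as a share of the range (Dixon's test, critical value 0.466 for 10 libraries). Chance alone gives a share past this in about 1 in 20 groups of normally distributed values. Hippocampal post-KD Chrm2 was 41.5 CPM in the library of donor 9, with 18.5 CPM next. Frontal cortex pre-KD Ache was 66.4 CPM for donor 1, with 44.0 CPM next. Hippocampal post-KD Chrna7 was 14.5 CPM for donor 6, with 7.74 CPM next. Its share was 0.4663, barely past the critical value, and 6 of the 10 libraries were at 0. In a further 3 groups the other 9 libraries were at 0, so that the gap is the whole range by construction. Hippocampal pre-KD Chrna7 was 1.09 CPM for donor 3. Frontal cortex Chrm4 was 1.70 CPM for donor 10 in pre-KD and 1.13 CPM for donor 4 in post-KD libraries.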

How the results depend on the processing

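The count of members past an adjusted p under 0.05 was 0 between post-KD and pre-KD in both regions, and 0 for the difference between the regions' changes, under each alternative run, leaving out each donor included. Between the regions it was 1, but 2 with DESeq2 (Lynx1 and Chrm2), 0 with every gene that had a count, 0 with RLE size factors, and between 0 and 1 with a donor left out. Without the replicate block, Lynx1 lay at -0.40 with an adjusted p of 0.0301, and over all alternatives its adjusted p ran from 0.0116 to 0.135. With the donor as a replicate block no member passed, and the unadjusted call of Chrna7 was lost in both regions. In the frontal cortex it was also lost with DESeq2 (p = 0.188) and limma-voom weights (p = 0.128). Without donor 5 frontal cortex Chrna7 fell under 10 counts and was not tested, filterByExpr left it out of every comparison, and Chrm4 was tested only with every gene that had a count.

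Some members changed sign, none of them past the adjusted threshold, and the cause was not tested. With the donor as a replicate block, hippocampal Chrm3 went to 0.0065 (0.020 with DESeq2) and Chrna4 to -0.065 (-0.042 with DESeq2). With limma-voom weights, hippocampal Chrna4 went to -0.13 and Ache to -0.019. Regional Chrm1 went to 0.0095 with DESeq2 and to 0.010 with RLE size factors. Without the block, the difference between the regions' changes went to -0.27 for Chrna7 and to -0.010 for Lynx1. With a donor left out, the hippocampal change ran from -0.17 to 0.17 for Chrm3, from -0.086 to 0.24 for Chrna4, from -0.068 to 0.45 for Chrnb2 and from -0.065 to 0.33 for Ache, the frontal cortex change of Chrna4 from -0.28 to 0.071, and the regional difference from -0.088 to 0.010 for Chrm1 and from -0.13 to 0.30 for Chrnb2. The difference between the regions' changes then ran from -0.15 to 0.055 for Chrm1, from -0.11 to 0.38 for Chrm3, from -0.11 to 0.38 for Chrna4, from -0.64 to 0.059 for Ache and from -0.095 to 0.18 for Lynx1.

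Over all genes, regional calls numbered 548, and 1049 with DESeq2 and 1222 without the block. Hippocampal post-KD calls numbered 1, and 1291 with every gene that had a count and 0 with DESeq2, filterByExpr or the block. Frontal cortex calls numbered 1, and up to 12 with DESeq2 and the block. Calls for the difference between the regions' changes numbered 3, and 348 without the block and 0 with DESeq2 or filterByExpr. Depth and spread limit most what can be said of Chrm2, Chrna4 and Chrnb2, whose intervals were the widest of the members with counts in most libraries, and nothing can be said of changes in Chrm4.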
